A study of Mus musculus with 12 samples.

Results

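Activity-regulated immediate early genes were followed in primary mouse hippocampal cultures after knockdown of the lncRNA *Neuid*. The 39 genes were chosen by symbol from a list of rapid transcription factors and delayed effectors of neuronal activity. All 39 were matched by symbol to the annotation among 55471 genes in the count table, and all 39 passed the filter on low counts that kept 19578 genes for testing. The cultures came from hippocampi of wild-type (WT) CD1 embryos of mixed-sex litters, so that neurons were grown together with whatever other cells the dissociation carried over. Gapmers, which are antisense oligonucleotides that recruit RNase H to a matching RNA, were packaged in lipid nanoparticles and given at DIV 7 (day in vitro 7), and total RNA was collected at DIV 10. One arm received gapmers against *Neuid* (*Neuid* KD, 6 libraries) and the other a negative control gapmer (control, 6 libraries), and no arm without nanoparticles was analysed here. The cultures were not given a stimulus that the labels or the methods mention, so the values are levels 3 days after treatment and not a time course of induction. The labels number the libraries but do not say whether they came from separate cultures or litters, and p-values therefore measure the spread between these libraries, which may be technical.

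Immediate early genes are transcribed within minutes of synaptic input and need no new protein synthesis for it. Calcium entering through NMDA receptors and L-type channels activates calcium/calmodulin-dependent and MAP kinases, which act on factors already bound at the promoters, above all CREB at the cyclic AMP response element (CRE), SRF with its partners at the CArG box, and MEF2. A first wave encodes transcription factors of the AP-1, Egr, Nr4a and Npas4 families, and a later wave encodes proteins that act at the synapse or are secreted, such as Arc and BDNF. Phosphatases, kinases and repressors within the same programme shut it down again. In hippocampal neurons these genes serve as markers of recent activity and take part in synaptic plasticity.

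Library totals ran from 18002585 to 30914714 reads in control and from 11152556 to 30573480 reads in *Neuid* KD. The targeted gene, Gm10419 in the annotation, fell from 28.4 ± 2.03 to 8.05 ± 1.13 CPM (read counts scaled to a common library size; mean ± SD, n = 6 per group), with no overlap between the groups. The libraries differed in background reads, taken as the summed CPM of 1504 chemosensory receptor genes: 24.8 to 629 in control and 25.5 to 583 in *Neuid* KD, with 4 control and 3 *Neuid* KD libraries at or above 100 CPM. The 12 pan-neuronal markers, among them Rbfox3, Map2 and Snap25, summed to 6876 to 8077 CPM in control and 6778 to 8115 CPM in *Neuid* KD libraries, so the labelled cell type had its defining markers. The 10 astrocyte markers all rose, their sum going from 1687 to 2126 CPM in control to 3073 to 3736 CPM in *Neuid* KD libraries. Of the 6 markers of oligodendrocyte precursors, Olig1 and Olig2 rose. The other 4 were not called: Pdgfra, Cspg4, Sox10 and Gpr17 had log2 fold changes of 0.44, 0.16, 0.09 and -0.77. The sum of all 6 (96.3 to 115 CPM in control, 247 to 292 CPM in *Neuid* KD) was mostly Olig1, with means of 78.2 and 216 CPM. The sums of excitatory markers were 1547 to 1854 and 1861 to 2058 CPM and those of inhibitory markers 189 to 221 and 176 to 205 CPM, while microglial markers summed to 11.3 CPM at most in control and 11.1 CPM at most in *Neuid* KD libraries, and none of the tested microglial, endothelial, fibroblast and mural markers was called by edgeR or DESeq2 or had an unadjusted p under 0.05. In bulk RNA, fewer cells of a type and less RNA per cell cannot be told apart, and the part of the glial rise in the values below was not tested.

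The promoters of these genes are shown first, because the same short elements recur among them. RefSeq windows from 250 bases before to 50 bases after an annotated start on GRCm38.p6 were at hand for 30 of the 39 genes. The 9 genes without a window, Arc, Crem, Egr1, Egr3, Ier2, Klf10, Nptx2, Sik1 and Trib1, were not searched. Of these, Arc, Egr1, Egr3 and Sik1 passed the test described below. Bases farther than 250 before a start were not searched in any gene. The core of the CRE, TGACG on either strand, was found in 22 of the 30 (73.3%) and in 23.0% of 27025 genes with a window. The full CRE, TGACGTCA, which contains this core on both strands, was found in 4 of the 30, namely Btg2, Dusp1, Maff and Pcsk1 (13.3%), and in 2.03% of all genes. A CArG box was found in Dusp5 and Egr2 (6.67% against 1.81% of all genes). The Egr site GCGGGGGCG was found in Fosb, Fosl2, Klf2, Klf4 and Nr4a1 (16.7% against 3.31%), and the AP-1 site TGANTCA in Bdnf alone (3.33% against 8.97%). A gene with several starts has several windows, and counted by window the CRE core was in 59.1% of 44 windows of these genes and in 20.8% of 32851 windows. A match is a run of letters and not a measured binding site. The stretches below are from the 4 genes that passed the test and have a window with the CRE core, and from Fos and Nr4a1 as the best-known members with several cores. They are written 5′ to 3′ on the strand of the gene, with the CRE core in capitals (TGACG, or CGTCA where it lies on the other strand).
Pcsk1: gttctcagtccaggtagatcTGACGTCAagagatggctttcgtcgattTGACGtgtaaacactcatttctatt
Maff: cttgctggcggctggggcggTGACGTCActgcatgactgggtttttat
Nfil3: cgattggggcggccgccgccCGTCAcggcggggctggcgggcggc
Egr4: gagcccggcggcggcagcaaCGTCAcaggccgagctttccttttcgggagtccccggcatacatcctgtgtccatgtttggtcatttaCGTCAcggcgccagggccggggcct
Fos: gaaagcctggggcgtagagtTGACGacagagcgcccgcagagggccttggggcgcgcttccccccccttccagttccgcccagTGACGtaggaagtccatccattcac
Nr4a1: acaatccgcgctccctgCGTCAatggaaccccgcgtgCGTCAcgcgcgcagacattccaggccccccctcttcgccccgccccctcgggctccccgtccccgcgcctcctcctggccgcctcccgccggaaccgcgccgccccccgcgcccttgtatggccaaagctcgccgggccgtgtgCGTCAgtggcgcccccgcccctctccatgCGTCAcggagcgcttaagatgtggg
On GRCm38.p6 these stretches are chr13:75089759-75089831 (+) for Pcsk1, chr15:79347471-79347518 (+) for Maff, chr13:52981074-52981118 (-) for Nfil3, chr6:85513674-85513786 (-) for Egr4, chr12:85473741-85473848 (+) for Fos and chr15:101266596-101266830 (+) for Nr4a1. They lie outside annotated exons, apart from the last 6 bases of the Pcsk1 stretch. Counted from the annotated start of the printed window as position 0, the full CRE begins at -78 in Pcsk1 and at -29 in Maff, and the cores of Fos begin at -129 and -66. Maff has several annotated starts, and its stretch is from the window with the most matches. The Maff window at chr15:79346371-79346670, around its most upstream start, held no core.

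The comparison asked which of these genes differed between *Neuid* KD and control libraries. With a threshold of 0.05 on adjusted p (edgeR, quasi-likelihood, Benjamini-Hochberg over all 19578 genes), 5 of the 39 were higher in *Neuid* KD (Egr1, Arc, Gadd45g, Egr4 and Egr3) and 4 were lower (Maff, Pcsk1, Nfil3 and Sik1). These 9 genes are 23.1% of the members, where 8.72% of all tested genes were called, 6.31% higher and 2.42% lower. Most members were well expressed, with 0, 8, 21 and 10 of them in the quartiles of mean expression from the lowest to the highest, and 0.102%, 5.37%, 14.9% and 14.6% of all genes were called in these quartiles. The median log2 fold change of the 39 was -0.036 (17 above and 22 below 0), against -0.027 for all tested genes. The folds were small: with an absolute log2 fold change above 0.5 asked for as well, Maff alone was called, where 3.23% of all tested genes were. Between the groups, 4 members did not overlap in CPM, Egr1 and Arc with all *Neuid* KD libraries above all control libraries and Pcsk1 and Sik1 with all below, where 5.70% of all tested genes did not overlap, 4.13% higher and 1.57% lower. These numbers depended on the scaling and the model. They were 4 higher and 9 lower under upper-quartile scaling, and 5 and 10 with DESeq2, with an RUVs factor or with background as a covariate. They were 1 and 0 with offsets for GC content and length fitted on all genes, where Arc alone stayed past the threshold. The calls over all 19578 genes moved as well, from 1235 higher and 473 lower in the reported fit. They were 1049 and 1259 under upper-quartile scaling and 1397 and 915 with DESeq2. With the RUVs factor they were 1757 and 988, with background as a covariate 1776 and 989, and with the offsets 399 and 98.

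**Figure D1:**
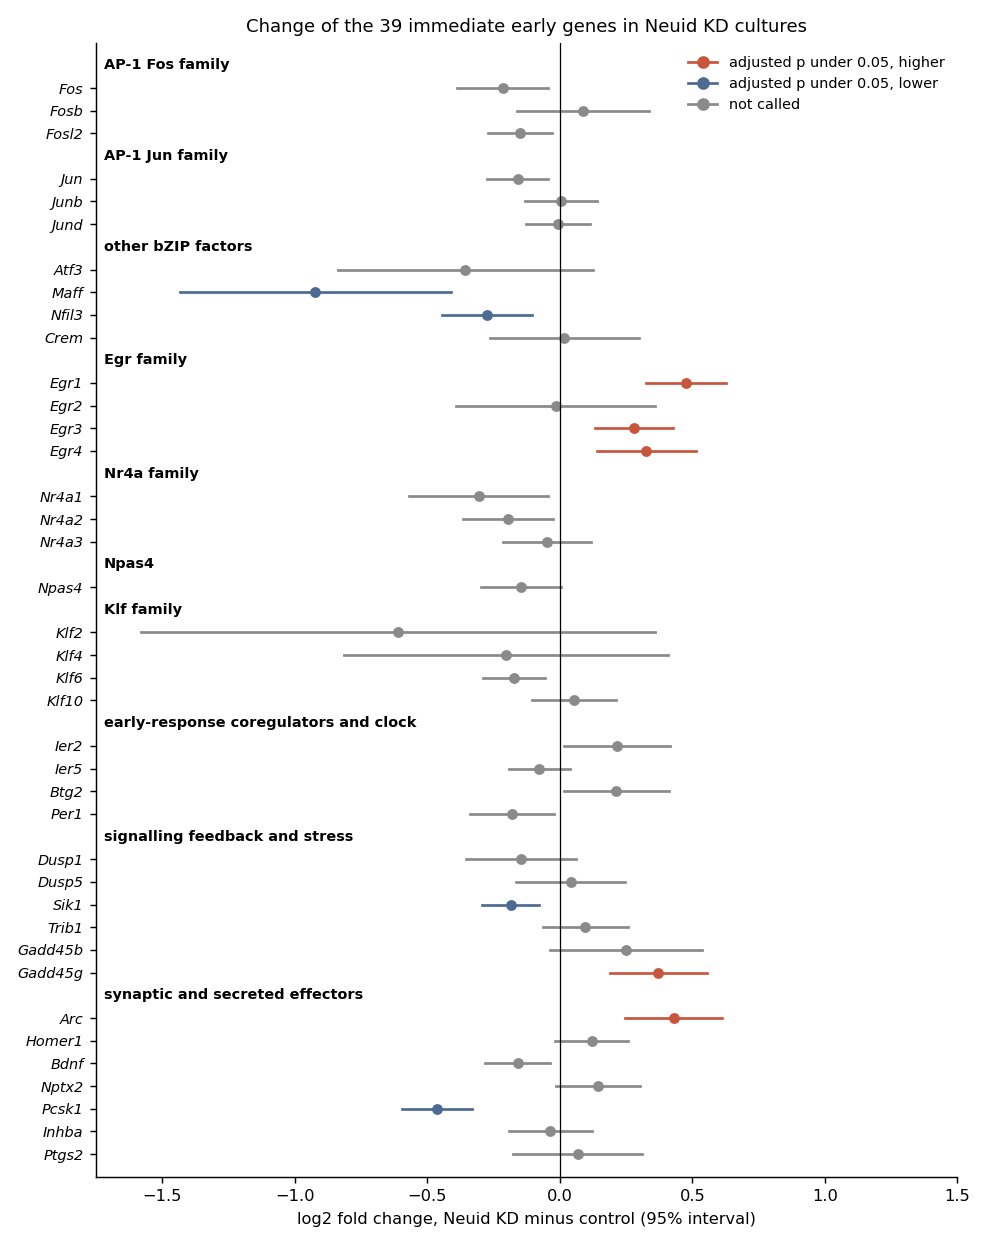
Log2 fold change of each of the 39 genes, *Neuid* KD minus control (x axis), ordered by role, as points. The 95% intervals were derived from the F statistic of edgeR's quasi-likelihood test. Coloured points passed an adjusted p of 0.05: 5 lie to the right of 0, 3 of them in the Egr family, and 4 lie to the left, with Maff farthest at -0.92 and the widest interval among them.

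Of the 5 increases, 3 were in the Egr family, a share that rested on Egr3 and Egr4: it was 2 of 4 with upper-quartile scaling, 1 of 4 in the libraries of high background and 0 of 1 with GC and length offsets. Egr1 to Egr4 encode zinc-finger factors that bind GC-rich sites, and Egr1 and Egr3 are needed for lasting forms of hippocampal plasticity. Egr1 (ENSMUSG00000038418) lay between 43.1 and 58.5 CPM in control libraries (median 47.5) and went from 59.0 to 72.6 CPM in *Neuid* KD (median 67.1). The highest control library, replicate 2, was just below the lowest *Neuid* KD library, replicate 5, and the other *Neuid* KD libraries were at 66.5 CPM or more. With n = 6 per group, edgeR gave Egr1 a log2 fold change of 0.48 (standard error, SE, 0.0715, adjusted p = 0.000197), and it was called without each library in turn (adjusted p from 3.88e-05 to 0.00223). The call was lost with GC and length offsets on all genes (log2 fold change 0.53, adjusted p = 0.0639 from edgeR).
Egr3 (ENSMUSG00000033730, chromosome 14 from 70077203 to 70082614) ranged from 36.3 to 45.1 CPM in control (median 41.0) and from 41.9 to 53.5 CPM in *Neuid* KD (median 50.6). *Neuid* KD replicate 1 was the only library of its group inside the control range. Egr3 thus had a log2 fold change of 0.28 (SE 0.0691, adjusted p = 0.0146 from edgeR), and the call was lost without *Neuid* KD replicate 2 (adjusted p = 0.0877), replicate 4 (0.0657) or replicate 6 (0.0543), without a filter on low counts (0.148) and in the libraries of high background alone (0.274).
Egr4 (ENSMUSG00000071341, chromosome 6 from 85511121 to 85513589) ranged from 8.63 to 10.9 CPM in control (median 8.98) and from 9.83 to 14.3 CPM in *Neuid* KD (median 11.6). Its groups overlapped through *Neuid* KD replicate 3, the lowest of its group, and control replicates 1 and 2. For Egr4, edgeR gave a log2 fold change of 0.33 (SE 0.0883, adjusted p = 0.0272). This call was the least steady of the 9: it was lost without any library other than control replicate 1 or 2 or *Neuid* KD replicate 3, with adjusted p from 0.0122 to 0.0915. It was also lost in the libraries of high (0.390) and low (0.0747) background alone, with upper-quartile scaling (0.0967) and with thinning (0.135).
Egr2 stood at 2.47 to 3.99 CPM in control and 2.43 to 4.08 CPM in *Neuid* KD libraries. Its log2 fold change was -0.02 with a 95% interval from -0.39 to 0.36, so that a change of the size of that of Egr3 lies within it.

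Among the effectors that act at the synapse or are secreted, Arc rose and Pcsk1 fell. Arc (ENSMUSG00000022602, chromosome 15 from 74669083 to 74672570) encodes a capsid-like protein that promotes removal of AMPA receptors from synapses. It ranged from 10.5 to 15.2 CPM in control (median 13.6) and from 15.3 to 19.6 CPM in *Neuid* KD (median 17.7). The groups met without overlapping at control replicate 2 (15.25 CPM) and *Neuid* KD replicate 2 (15.32 CPM). Arc had a log2 fold change of 0.43 (SE 0.0861, adjusted p = 0.00302 from edgeR), and was called in all 27 other fits, which are the alternative settings and the omissions of each library (adjusted p up to 0.0488).
Pcsk1 (ENSMUSG00000021587, chromosome 13 from 75089826 to 75134861) encodes prohormone convertase 1, which cuts proneuropeptides in dense-core vesicles. It had the smallest adjusted p of the 39 genes. It ranged from 35.2 to 41.0 CPM in control (median 37.4) and from 22.2 to 30.2 CPM in *Neuid* KD (median 27.8), with replicate 1 the lowest of its group. Its log2 fold change was -0.46 (SE 0.0617, adjusted p = 5.34e-05 from edgeR), with adjusted p from 3.90e-06 to 0.000317 without each library in turn. The call was lost in both fits with GC and length offsets on all genes (adjusted p = 0.242, and 0.207 with the replicate block), where the log2 fold change was -0.43 in each.
The other 5 effectors were not called. Homer1, a postsynaptic scaffold whose short activity-induced isoform the gene counts do not separate, had the highest CPM of the group, with 82.2 to 102 CPM in control (median 94.0) and 87.7 to 110.0 CPM in *Neuid* KD (median 103). Its groups overlapped over most of their range (log2 fold change 0.12, 95% interval -0.02 to 0.26). Homer1 overlaps other annotated genes on its own strand, and its counts are uncertain for that reason. Bdnf, the neurotrophin that supports synaptic growth, stood at 74.1 to 89.7 CPM in control (median 77.9) and 67.1 to 78.3 CPM in *Neuid* KD (median 69.9). Its log2 fold change was -0.16 (95% interval -0.28 to -0.04, adjusted p = 0.114 from edgeR), and it was called in 9 of the 27 other fits, such as DESeq2 (adjusted p = 0.0171) and without *Neuid* KD replicate 1 (0.0496) or replicate 6 (0.0481). The synaptic pentraxin Nptx2, the activin subunit Inhba and the cyclooxygenase Ptgs2 had log2 fold changes of 0.14, -0.04 and 0.07, each with an interval that held 0.

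**Figure D2:**
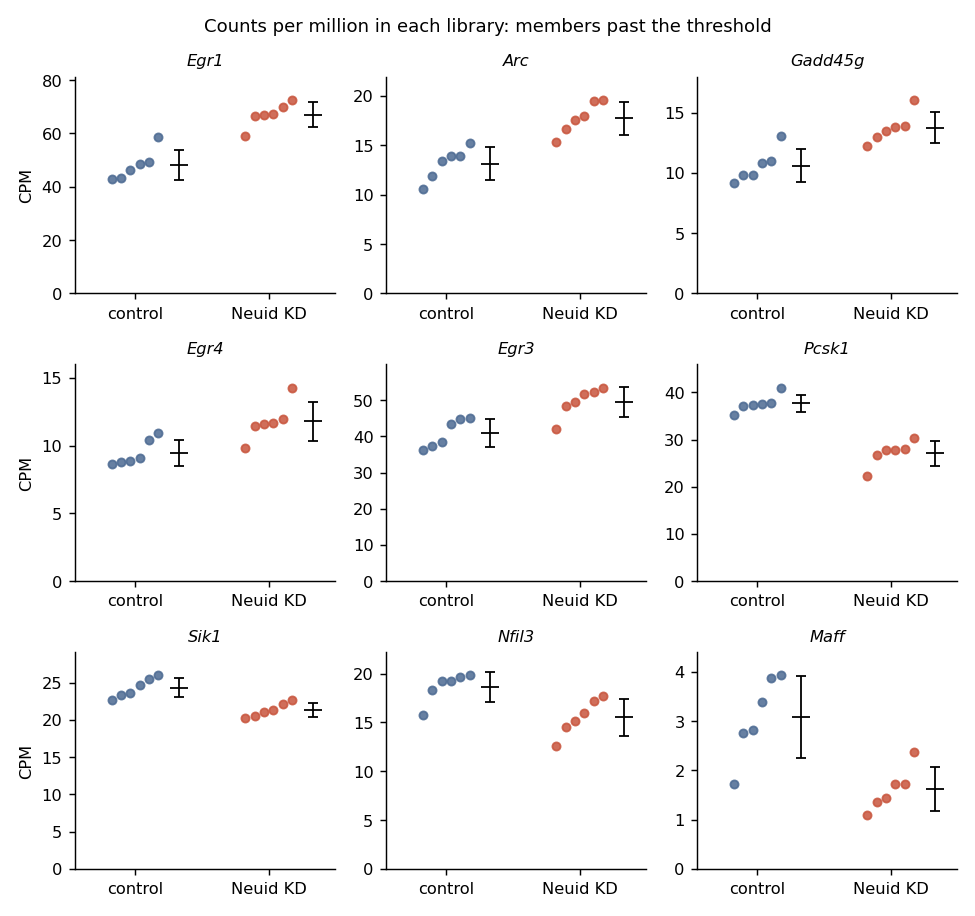
CPM (y axis, from 0) in each of the 6 control and 6 *Neuid* KD libraries for the 9 genes past the threshold. Each point is a library, sorted by value within its group, and the bar is the mean ± SD. The groups do not overlap for Egr1, Arc, Pcsk1 and Sik1, and they do for the other 5.

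The genes of signalling feedback and stress also moved in both directions. Gadd45g (ENSMUSG00000021453, chromosome 13 from 51846678 to 51848468), a small stress-response protein linked to active DNA demethylation, ranged from 9.14 to 13.1 CPM in control (median 10.3) and from 12.2 to 16.0 CPM in *Neuid* KD (median 13.7). The groups overlapped through control replicate 5, the highest control, and *Neuid* KD replicates 2 and 6. Gadd45g had a log2 fold change of 0.37 (SE 0.0868, adjusted p = 0.0101 from edgeR), and the call was lost without control replicate 2 (adjusted p = 0.0574) or *Neuid* KD replicate 3 (0.0621). Its CPM also went with the background reads: over the 12 libraries, the Pearson correlation of deviations from the group means was -0.74, a description over libraries that share their depth and background. Within the 5 libraries of low background the log2 fold change of Gadd45g was 0.22 (adjusted p = 0.333 from edgeR).
Sik1 (ENSMUSG00000024042, chromosome 17 from 31844250 to 31855804), a salt-inducible kinase that restrains CREB by acting on its coactivators, had the highest CPM of this group. It ranged from 22.7 to 26.0 CPM in control (median 24.1) and from 20.2 to 22.7 CPM in *Neuid* KD (median 21.2). The groups did not overlap, but the gap was narrow, with control replicate 5 at 22.71 CPM and *Neuid* KD replicate 3 at 22.69 CPM. Despite the separation, Sik1 changed little, with a log2 fold change of -0.19 (SE 0.0512, adjusted p = 0.0302 from edgeR). The call was lost without control replicate 2, 3, 4 or 6 or *Neuid* KD replicate 2 (adjusted p = 0.0658, 0.0513, 0.0812, 0.0650 and 0.102). It was also lost in the low-background (log2 fold change -0.12) and high-background (-0.24) libraries alone, with adjusted p = 0.524 and 0.279 from edgeR.
The MAP kinase phosphatases Dusp1 and Dusp5, the pseudokinase Trib1 and Gadd45b were not called, with log2 fold changes of -0.15, 0.04, 0.10 and 0.25. All 4 intervals held 0. Dusp1 overlaps other annotated genes on both strands, and its counts are uncertain for that reason.

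Of the bZIP factors outside AP-1 proper, 2 of 4 were lower. Maff (ENSMUSG00000042622, chromosome 15 from 79346621 to 79359076), a small Maf protein without an activation domain, was rare, with 1.72 to 3.93 CPM in control (median 3.10) and 1.09 to 2.38 CPM in *Neuid* KD (median 1.58). The lowest of its 12 counts was 17 reads. The groups overlapped through control replicate 6, the lowest control, and *Neuid* KD replicates 3, 4 and 6, and edgeR gave a log2 fold change of -0.92 (SE 0.242, adjusted p = 0.0220). The call for Maff was lost without control replicate 2 (adjusted p = 0.0643) or *Neuid* KD replicate 2 (0.0647), with log2 fold changes of -0.85 and -0.83. It was also lost without a filter on low counts (0.104), in the libraries of high (0.0516) and low (0.161) background alone, and with GC and length offsets (0.156).
Nfil3 (ENSMUSG00000056749, chromosome 13 from 52967209 to 52981073), a repressor that opposes the PAR-bZIP factors of the clock output, had the highest CPM of this group. It ranged from 15.7 to 19.8 CPM in control (median 19.2) and from 12.6 to 17.7 CPM in *Neuid* KD (median 15.5). A single control library, replicate 2, reached into the *Neuid* KD range. Nfil3 had a log2 fold change of -0.27 (SE 0.0808, adjusted p = 0.0427 from edgeR). The call was held in only 3 of the 12 omissions of a library, those of control replicate 2 and *Neuid* KD replicates 1 and 6, and adjusted p ranged from 0.0131 to 0.127. It was also lost without a filter on low counts (0.187) and in the libraries of high background alone (0.601).
Atf3, an injury-response factor, stood at 2.17 to 3.53 CPM in control and 1.36 to 3.12 CPM in *Neuid* KD libraries, with a log2 fold change of -0.36 and a 95% interval from -0.84 to 0.12. Crem, which yields the repressor ICER from an internal promoter that gene counts do not separate, had a log2 fold change of 0.02 (95% interval -0.26 to 0.30).

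No member of the AP-1 families proper was called by edgeR, while 3 of the 6 (Fos, Fosl2 and Jun) had an unadjusted p under 0.05 and a negative log2 fold change. DESeq2 called these 3 (adjusted p = 0.0341, 0.0226 and 0.0120) and limma-voom none. Over all 19578 tested genes, DESeq2 called 1397 higher and 915 lower. For this and the other counts at an unadjusted p, the share of all tested genes was not computed. The Fos and Jun proteins pair to form AP-1, the textbook readout of neuronal stimulation. Fos (ENSMUSG00000021250, chromosome 12 from 85473890 to 85477273) ranged from 17.7 to 21.5 CPM in control (median 20.2) and from 15.9 to 22.4 CPM in *Neuid* KD (median 16.3). In *Neuid* KD, 5 of the 6 libraries lay between 15.9 and 17.0 CPM, below every control library, and replicate 1 at 22.4 CPM lay above every control library. Over all libraries Fos had a log2 fold change of -0.22 (SE 0.0813, adjusted p = 0.129 from edgeR), and without *Neuid* KD replicate 1 it was -0.33 (adjusted p = 0.00192). That library was also high in background (583 CPM on chemosensory receptor genes) and the lowest of all 12 for Nr4a3, Per1 and Pcsk1. It had the fewest reads of all 12 (11152556). It was also the lowest for some pan-neuronal markers, such as Map2 (2106 CPM) and Dcx (428 CPM), but not for others, such as Tubb3 (580 CPM).
Fosl2, a longer-lived Fos relative, had the highest CPM of the Fos family, from 112 to 142 CPM in control (median 131) and from 110.0 to 122 CPM in *Neuid* KD (median 117). Its groups overlapped through control replicate 2 alone, which fell inside the *Neuid* KD range. Fosl2 had a log2 fold change of -0.15 (SE 0.0566, adjusted p = 0.131 from edgeR), and was called in 9 of the 27 other fits, among them the one without *Neuid* KD replicate 1 (adjusted p = 0.0446).
Fosb, whose truncated product accumulates with repeated activity, stood at 4.10 to 6.75 and 5.43 to 6.65 CPM (log2 fold change 0.09, 95% interval -0.16 to 0.33).
Jun showed the largest difference of its family, with 91.8 to 107 CPM in control (median 103) and 83.0 to 96.5 CPM in *Neuid* KD (median 90.3). Control replicates 1 and 4 lay inside the *Neuid* KD range and the other 4 control libraries above it. For Jun, edgeR gave a log2 fold change of -0.16 (SE 0.0542, adjusted p = 0.0894). It was called in 9 of the 27 other fits, such as those with background as a covariate (adjusted p = 0.00341) and without *Neuid* KD replicate 1 (0.0316). Its deviations from the group means also went with the background reads (Pearson r = -0.85 over the 12 libraries, a description), and Jun overlaps the antisense gene Junos, with the strand setting of the counting not given in the sources used here.
Jund, the constitutive member, stood at 112 to 133 CPM in control (median 116) and 107 to 130 CPM in *Neuid* KD (median 119), and Junb at 14.0 to 18.4 and 16.2 to 17.2 CPM. Their log2 fold changes were -0.0075 (95% interval -0.13 to 0.11) and 0.0044 (-0.13 to 0.14), narrow enough to leave out a change of the size of that of Egr3.

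**Figure D3:**
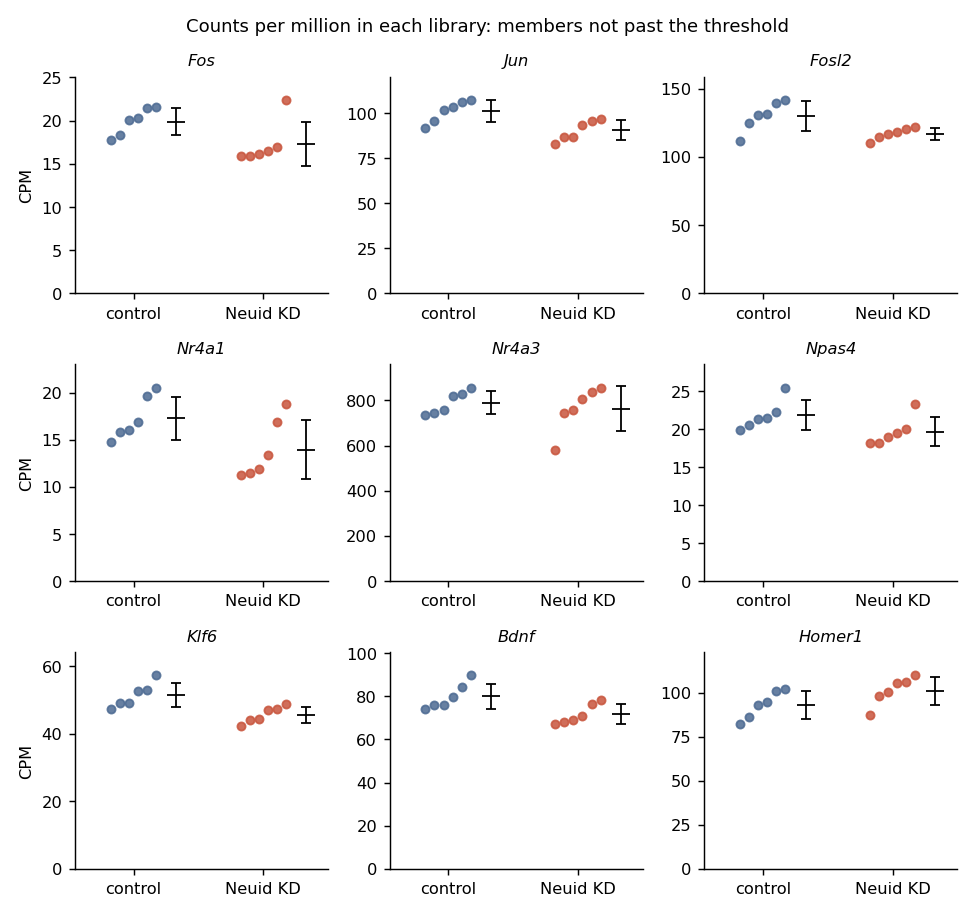
CPM (y axis, from 0) in each of the 6 control and 6 *Neuid* KD libraries for 9 genes that did not pass the threshold. Each point is a library, sorted by value within its group, and the bar is the mean ± SD. For Fos, 5 *Neuid* KD libraries lie below all control libraries and 1, at 22.4 CPM, above them, and for Nr4a3 the same library, at 579 CPM, is the lowest.

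The Nr4a orphan nuclear receptors, which bind DNA without a known hormone and are tied to memory consolidation, all had log2 fold changes below 0. None was called by edgeR, DESeq2 or limma-voom, and Nr4a1 and Nr4a2 had an unadjusted p under 0.05 in edgeR. Nr4a3 was the most abundant of the 39 genes, at 736 to 855 CPM in control (median 787) and 579 to 857 CPM in *Neuid* KD (median 782). Apart from *Neuid* KD replicate 1 at 579 CPM, the groups covered the same range (log2 fold change -0.05, 95% interval -0.21 to 0.12). Nr4a1 showed the largest difference of the family, with 14.8 to 20.5 CPM in control (median 16.4) and 11.3 to 18.8 CPM in *Neuid* KD (median 12.7). In *Neuid* KD, replicates 3 and 6 lay inside the control range and the other 4 libraries below it. Nr4a1 had a log2 fold change of -0.31 (SE 0.124, adjusted p = 0.169 from edgeR), which was -0.42 without *Neuid* KD replicate 3 (adjusted p = 0.0221). It was also called with the RUVs factor (0.0292), with background as a covariate (0.0293), in the libraries of high background alone (log2 fold change -0.45, 0.0254) and with thinning (0.0315). Nr4a2 stood at 13.7 to 18.9 CPM in control and 13.2 to 15.9 CPM in *Neuid* KD (log2 fold change -0.20, adjusted p = 0.176 from edgeR), and was called without control replicate 2 (adjusted p = 0.0458).

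Npas4 is the member most specific to neurons and to calcium influx, and sets the balance of inhibitory input. It ranged from 19.9 to 25.5 CPM in control (median 21.5) and from 18.2 to 23.3 CPM in *Neuid* KD (median 19.3). In *Neuid* KD, replicate 6 stood apart at 23.3 CPM, replicate 2 lay just inside the control range, and the other 4 were below every control library. Npas4 had a log2 fold change of -0.15 (SE 0.0716, adjusted p = 0.287 from edgeR), which was -0.23 without *Neuid* KD replicate 6 (adjusted p = 0.0498).

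None of the 4 Klf zinc-finger genes was called by edgeR or limma-voom, and only Klf6 had an unadjusted p under 0.05 and was called by DESeq2 (adjusted p = 0.00821). Klf6, which is linked to axon growth, had the highest CPM, from 47.2 to 57.3 CPM in control (median 50.9) and from 42.3 to 48.7 CPM in *Neuid* KD (median 45.7). Control replicate 5 was the only control library inside the *Neuid* KD range. Klf6 had a log2 fold change of -0.17 (SE 0.0546, adjusted p = 0.0628 from edgeR), the smallest adjusted p among the 30 genes not called, and it was called in 10 of the 27 other fits, among them the fit without *Neuid* KD replicate 1 (adjusted p = 0.0293). Klf2 had the largest log2 fold change of the family, -0.61, on 0.879 to 2.01 CPM in control (median 1.36) and 0.281 to 1.98 CPM in *Neuid* KD (median 0.716). The interval of Klf2 ran from -1.58 to 0.36, with 6 reads in its lowest library, *Neuid* KD replicate 3, and a wide spread between the libraries of a group. Klf4 stood at 0.667 to 2.31 and 1.20 to 1.60 CPM and Klf10 at 22.7 to 31.6 and 27.5 to 33.9 CPM, with log2 fold changes of -0.20 and 0.05.

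Among the early-response coregulators and the clock gene, none of 4 was called by edgeR or limma-voom. Ier2, Btg2 and Per1 had an unadjusted p under 0.05, and DESeq2 called Per1 (adjusted p = 0.0440). Ier2, a short nuclear protein, had the largest log2 fold change, 0.22, on 9.37 to 13.5 CPM in control (median 12.1) and 11.0 to 16.1 CPM in *Neuid* KD (median 13.8). *Neuid* KD replicates 3 and 5 lay inside the control range (adjusted p = 0.216 from edgeR). Per1, a core repressor of the circadian clock that CREB also induces, had the highest CPM, from 36.3 to 46.1 CPM in control (median 42.5) and from 29.5 to 42.0 CPM in *Neuid* KD (median 37.9). Its groups overlapped through control replicate 4, and its log2 fold change was -0.18 (SE 0.0749, adjusted p = 0.178 from edgeR). Btg2, an antiproliferative coregulator, had a log2 fold change of 0.21 (95% interval 0.01 to 0.41, adjusted p = 0.219 from edgeR) and Ier5 one of -0.08.

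Compared per length, the levels of the 39 genes covered a wide range. On the RPKM scale (CPM per kilobase of exon, mean over 12 libraries), Nr4a3 was at 129.7, Jund at 71.4 and Jun at 30.0, and the next were Egr1 at 12.8, Fosl2 at 12.7 and Bdnf at 12.2. Fos stood at 7.91, Arc at 5.06 and Npas4 at 5.02 RPKM. The lowest were Klf4 at 0.516, Klf2 at 0.648 and Maff at 0.906 RPKM. The 5 genes called higher had levels between 4.94 and 12.8 RPKM, and those called lower between 0.906 and 8.43 RPKM. The most abundant members per length, Nr4a3, Jund and Jun, had log2 fold changes between -0.16 and -0.0075.

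**Figure D4:**
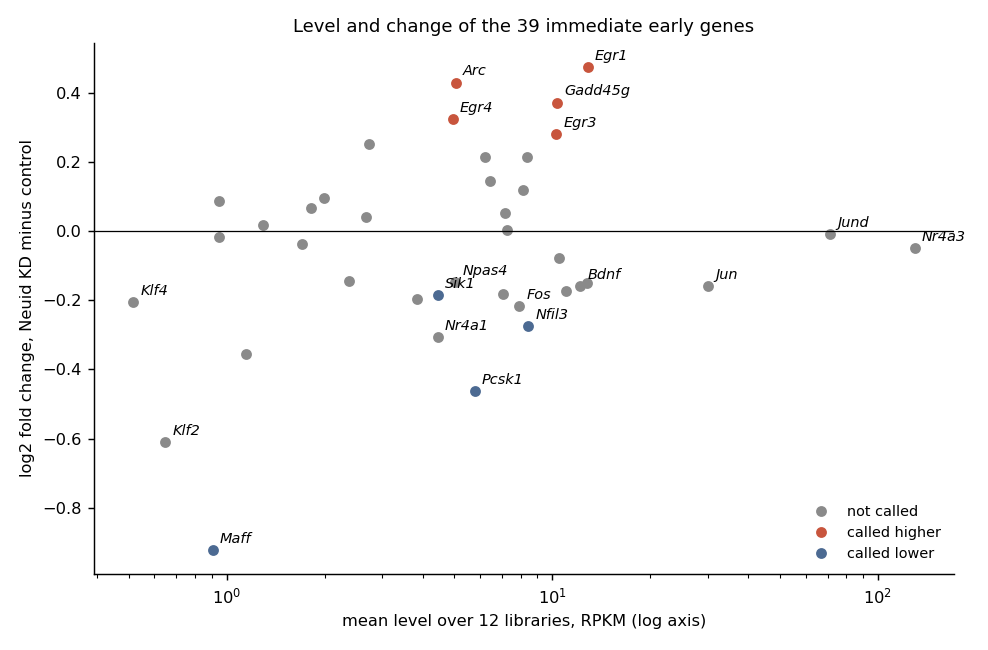
Mean level over the 12 libraries in RPKM (x axis, log scale) and log2 fold change, *Neuid* KD minus control (y axis), with a point for each of the 39 genes, coloured by call. The 9 called genes lie between 0.906 and 12.8 RPKM, and the 3 most abundant genes, Jun, Jund and Nr4a3, are not called.

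Whether the members varied together was looked at within the groups, as deviations of log2 CPM from the group means over 12 libraries. Over the 741 pairs, the Pearson correlations had a median of 0.038 and ran from -0.78 to 0.89. The highest were those of Nr4a3 with Per1 (0.89), Per1 with Pcsk1 (0.87) and Egr3 with Homer1 (0.86), and Fos and Nr4a3 went opposite ways (-0.77). *Neuid* KD replicate 1 is at an extreme for Fos, Nr4a3, Per1 and Pcsk1 and weighs on these values. The pairs share library, depth and background, and the correlations are a description. Outside the members, the genes most like Fos among 10681 candidates with at least 5 CPM were Rabac1 (0.88), Chst8 (0.82), Psen2, Gpx1 and Pcca (0.81 each). These are the highest of many values from the same 12 libraries, and *Neuid* KD replicate 1, with the largest deviation of Fos (0.38), weighs on them too.

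The genes upstream of the programme were read from 2 lists. Of 15 transcription factors and coactivators, among them Creb1, Srf and the Crtc genes, none was called higher by edgeR, DESeq2 or limma-voom (3 at an unadjusted p under 0.05, Crtc3, Elk1 and Neurod2) and 1 was lower, Mef2c, a MEF2 factor of activity-dependent transcription. It fell from 63.4 to 70.4 CPM in control to 50.2 to 59.7 CPM in *Neuid* KD without overlap (log2 fold change -0.24, SE 0.0524, adjusted p = 0.00533 from edgeR). Of 25 genes of calcium and kinase signalling, edgeR and limma-voom each called 4 higher and 2 lower and DESeq2 4 higher and 3 lower. DESeq2 called 1397 higher and 915 lower over all 19578 tested genes. At an unadjusted p under 0.05 in edgeR, 6 of the 25 were higher and 3 lower, but the share of all tested genes at that threshold was not computed. The edgeR calls were 6.67% of the 15 and 24% of the 25 genes, where 8.72% of all tested genes were called. That share was 14.9% and 14.6% in the upper 2 quartiles of mean expression. The L-type channel subunit Cacna1c had a log2 fold change of 0.50, and Camk2a, the abundant calcium/calmodulin-dependent kinase of excitatory neurons, one of 0.38. Camk2a stood at 602 to 755 CPM in control and 824 to 938 CPM in *Neuid* KD. In edgeR, the calcineurin subunit Ppp3ca (0.25) and the MAP kinase kinase Map2k2 (0.20) were the other increases, and the MAP kinase Mapk3 (-0.18) and the ribosomal S6 kinase Rps6ka2 (-0.25) the decreases. Camk2a is also on the list of excitatory markers.

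Of 30 further activity-regulated genes outside the 39, edgeR and limma-voom each called 5 higher and 1 lower and DESeq2 5 higher and 5 lower. The edgeR calls were 20% of this list, where 8.72% of all tested genes were called. DESeq2 called 1397 higher and 915 lower over all 19578 tested genes. At an unadjusted p under 0.05 in edgeR, 7 of this list were higher and 8 lower, but the share of all tested genes at that threshold was not computed. The median log2 fold change of the list was -0.02. Nptx1 (0.30), a synaptic pentraxin, the ERK phosphatase Dusp6 (0.33), the sorting receptor Sorcs3 (0.36), the receptor tyrosine kinase inhibitor Spry2 (0.30) and the neurofilament Nefm (0.21, also a pan-neuronal marker) rose in edgeR. Scg2, a granin of dense-core vesicles like those in which Pcsk1 acts, fell from 255 to 303 CPM in control to 188 to 207 CPM in *Neuid* KD (log2 fold change -0.48, SE 0.0520, n = 6 per group, no overlap). Of 8 genes of heat shock and dissociation stress, 7 were tested, 0 had an unadjusted p under 0.05, and none was called by edgeR, DESeq2 or limma-voom.

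Called genes differed in how they fared when the analysis was run another way. Arc was called in 27, Egr1 in 26 and Pcsk1 in 25 of the 27 other fits, Gadd45g in 22, Egr3 and Maff in 20, Sik1 in 15, Nfil3 in 14 and Egr4 in 12. The sign of the log2 fold change of each of the 9 was the same in all 27 fits. Of the genes not called, Klf6, Bdnf, Fosl2 and Jun were called most often, all with negative log2 fold changes. Omitting *Neuid* KD replicate 1 raised the number of members called lower from 4 to 9, and that of all tested genes called lower from 473 to 780.

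**Figure D5:**
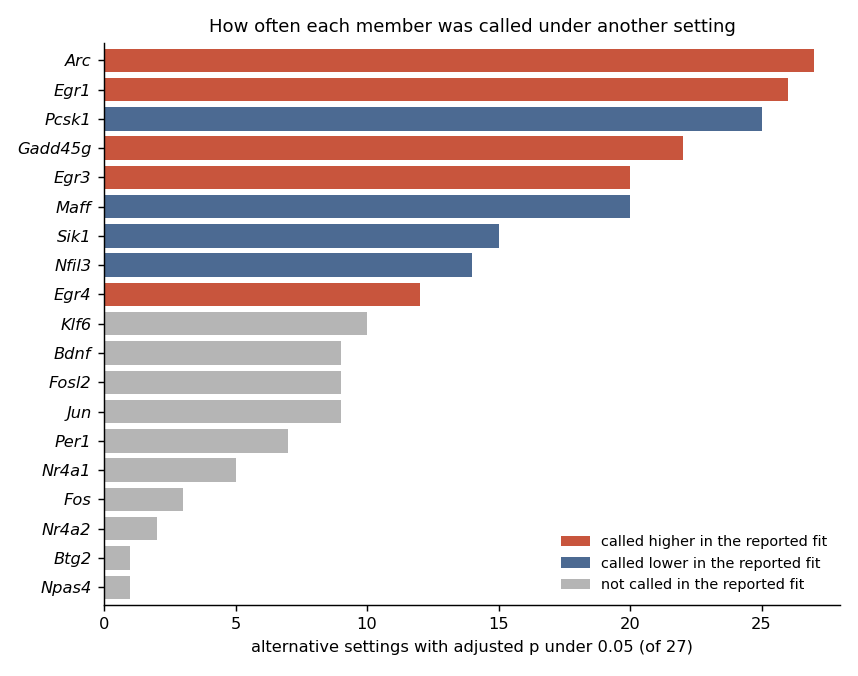
Number of the 27 other fits (x axis) in which each gene had an adjusted p under 0.05, for the 19 genes called in at least 1, coloured by their call in the reported fit. Arc, Egr1 and Pcsk1 have the longest bars (27, 26 and 25), and the 9 genes called in the reported fit all lie above Klf6, the first of those not called, at 10.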

How the data were processed

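Per the study's methods and the labels, libraries were made from total RNA with a stranded total RNA kit for small inputs, demultiplexed with bcl2fastq, aligned with STAR to mm10 (GRCm38) and counted per gene with featureCounts. The authors deposited these read counts, 1 table of 55471 genes and 12 libraries, without normalization. The strand setting and the annotation release of the counting are not given in the sources used here.

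Symbols, positions and exon lengths came from GENCODE M21 and were found for 55230 genes. Genes were kept by filterByExpr, scaled by TMM and compared between groups over all 12 libraries in edgeR 4.0.16 (glmQLFit and glmQLFTest, design: group; R 4.3.3), with Benjamini-Hochberg adjustment over the 19578 tested genes. A gene was called at an adjusted p under 0.05. Exact two-sided permutation tests over the 924 arrangements of 6 against 6 cannot go below p = 0.002165. CPM are TMM-scaled. Promoter windows were RefSeq's. The fitting code was tested on simulated data.

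The members, their roles and the other lists were chosen with earlier results of these data known, so lists are described by counts and medians, without a set test. Genes with values by library were those called, and in each role the gene of highest CPM and that of largest absolute log2 fold change. From the other lists the called genes are named, at most 6 each. Alternatives were RLE and upper-quartile scaling, DESeq2 1.42.0, limma-voom (limma 3.58.1), an RUVs factor, other filters, background as a covariate, the libraries of high or low background alone, GC and length offsets, thinning to 11152556 reads, a replicate block and omission of each library. Offsets fitted on genes of at least 10 CPM were added after seeing the data. No 2 libraries held identical counts. Of the members, 10 overlap another annotated gene, and their counts carry this uncertainty. Homer1 and Dusp1 do so on their own strand. Dusp1, Jun, Junb, Jund, Atf3, Crem, Dusp5, Bdnf and Inhba do so on the opposite strand.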

Additional observations from a re-analysis of the deposited data

Results flagged for a closer look

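A library was set apart where its gap to the nearest other library of its group was large against the range of the group, by Dixon's criterion. This held in 4 of the 80 groups of 6 libraries examined (39 members and Gm10419, 2 groups each), which is 5% and the rate that chance gives, about 1 in 20. Fos was at 22.4 CPM in *Neuid* KD replicate 1, with the other 5 libraries of the group between 15.9 and 17.0 CPM. Klf10 was at 22.7 CPM in control replicate 1, with the others between 30.1 and 31.6 CPM. Npas4 was at 23.3 CPM in *Neuid* KD replicate 6, with the others between 18.2 and 20.1 CPM. Dusp1 was at 9.78 CPM in the same library, with the others between 6.50 and 7.72 CPM.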

How the results depend on the processing

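In the reported fit, 5 members were called higher and 4 lower. The number higher was 0 with an absolute log2 fold change above 0.5, 1 with GC and length offsets, 2 with these offsets and the replicate block, and 3 in the libraries of low background. The number lower was 1 with the fold threshold and 1 without a filter on low counts, 0 with GC and length offsets with or without the replicate block, and 2 in the libraries of high background. It was 9 with upper-quartile scaling and with a filter at a mean of 1 CPM, and 10 with DESeq2, the RUVs factor, background as a covariate, thinning, and offsets fitted on genes of at least 10 CPM. Over all tested genes, the number lower went from 473 to 1259 with upper-quartile scaling, 794 with that filter and 915 with DESeq2. It went to 988 with the RUVs factor, 989 with background as a covariate, 664 with thinning and 1401 with the offsets on genes of at least 10 CPM. It fell to 229 without a filter, 205 in the libraries of high background and 98 with GC and length offsets on all genes. Without each library in turn, 3 to 5 members were higher and 1 to 9 lower, where 822 to 1208 of all tested genes were higher and 355 to 780 lower. With the offsets and the replicate block, 443 of all tested genes were higher and 90 lower. In the libraries of low background, 1110 of 17665 tested genes were higher. The cause of these moves was not tested. The median log2 fold change of the members, -0.036, was -0.097 with upper-quartile scaling and in the libraries of high background, -0.095 with offsets fitted on genes of at least 10 CPM, and between -0.11 and -0.024 without each library in turn. The median of all tested genes, -0.027, was -0.088 with upper-quartile scaling and -0.034 in the libraries of high background. It was -0.089 with those offsets, and between -0.073 and -0.0073 without each library in turn. Other members' signs changed only among genes not called in either fit. Same-numbered libraries were not alike throughout (correlations of their deviations from -0.64 to 0.77, and not every library correlated best with its own number). The libraries also differed in background, so these correlations cannot show whether same-numbered libraries shared a culture or litter. The replicate block gave 5 members higher and 4 lower, gaining Klf6 and losing Sik1 (adjusted p = 0.0506 from edgeR). Over all tested genes it gave 1299 higher and 542 lower. The log2 fold change of Gm10419 stayed between -1.93 and -1.74, called in every fit. Thinned to the smallest library, Egr4 and Sik1 lost their calls and Maff did not.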
